A study of Mus musculus with 4 samples.

Results

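The genes described here are 54 genes of mitosis and of the G2 to M transition, measured in mouse T helper 2 (Th2) cells given 10 µM dopamine or phosphate-buffered saline (PBS). The list was fixed by name (cyclins and their kinase, mitotic kinases, checkpoint, kinetochore, spindle, cytokinesis and condensin genes, and a pair of transcription factors). It was chosen with earlier results of these data known, and all 54 were found among the 26207 genes of the deposited table. Th2 cells, a kind of CD4 T cell, make the type 2 cytokines, and dopamine is a catecholamine made by sympathetic nerves, the subject of the study's title. The labels name spleen as the source of all 4 bulk RNA-seq libraries, 2 with dopamine and 2 with PBS, and give no strain, age, culture condition or length of treatment, nor whether the 2 libraries of a group are separate cultures or mice. The p-values therefore rest on the spread between 2 libraries a group, taken mostly over many genes and less from the gene itself. That spread may be technical. The dopamine libraries, here called dopamine A and dopamine B, held 14167357 and 11492182 reads assigned to genes, and PBS A and PBS B held 5717408 and 13241168.

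A dividing cell copies its DNA in S phase, builds up the products of these genes through G2 and destroys many of them again as it leaves M phase. Cyclin-dependent kinase 1 with cyclin A or B drives entry into mitosis, condensins and topoisomerase II shape the chromosomes, and the spindle pulls on them through the kinetochores. The anaphase-promoting complex (APC/C) then marks securin and B cyclins for destruction, and a contractile ring divides the cell. Activated T cells are among the fastest dividing cells of adult mammals, and in bulk RNA these transcripts are commonly read as a mark of dividing cells. In bulk samples, fewer cells of a kind and less RNA per cell cannot be told apart.

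Values are the authors' normalized read counts, which are reads divided by 1 size factor per library. Each log2 fold change is the dopamine mean minus the PBS mean of log2(value + 1), given with its standard error (SE). Adjusted p-values are limma's, with the Benjamini-Hochberg adjustment over all 26207 genes, and a gene was called higher or lower at an adjusted p below 0.05. Each gene's variance was drawn mostly from limma's trend over all genes (42.4 prior degrees of freedom). The SEs, 95% intervals and p-values thus rest only in small part on the gene's own spread. Every member was well measured, with a mean of 158 to 22667 normalized counts and at least 67 reads in each library. All 54 were tested, because limma was run on every gene without a filter.

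Under the authors' scaling, 11 of the 54 genes passed the test, in both directions, and 43 did not. With dopamine, 4 rose: Plk1, Ccnb1, Aurka and Cks2. A further 7 fell: Smc4, Mki67, Knl1, Nusap1, Kif4, Kif15 and Top2a. Of all genes tested, 14.3% were called higher and 7% lower. Of the 8492 abundant genes, which are those whose mean normalized count was 100 or more, 39.1% were called higher and 7.9% lower. Every member passes that cutoff, but the abundant genes were not matched to the members for level. By count, and with no test of the list, higher calls were a smaller share of the members than of the abundant genes, and lower calls a larger one. Their median log2 fold change was -0.016, against 0.198 for the abundant genes. The changes were small: 42 members had a log2 fold change of less than 0.2 in size, and the 95% interval of 53 members lay within a 1.5-fold change in either direction, Plk1 being the exception.

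**Figure D1:**
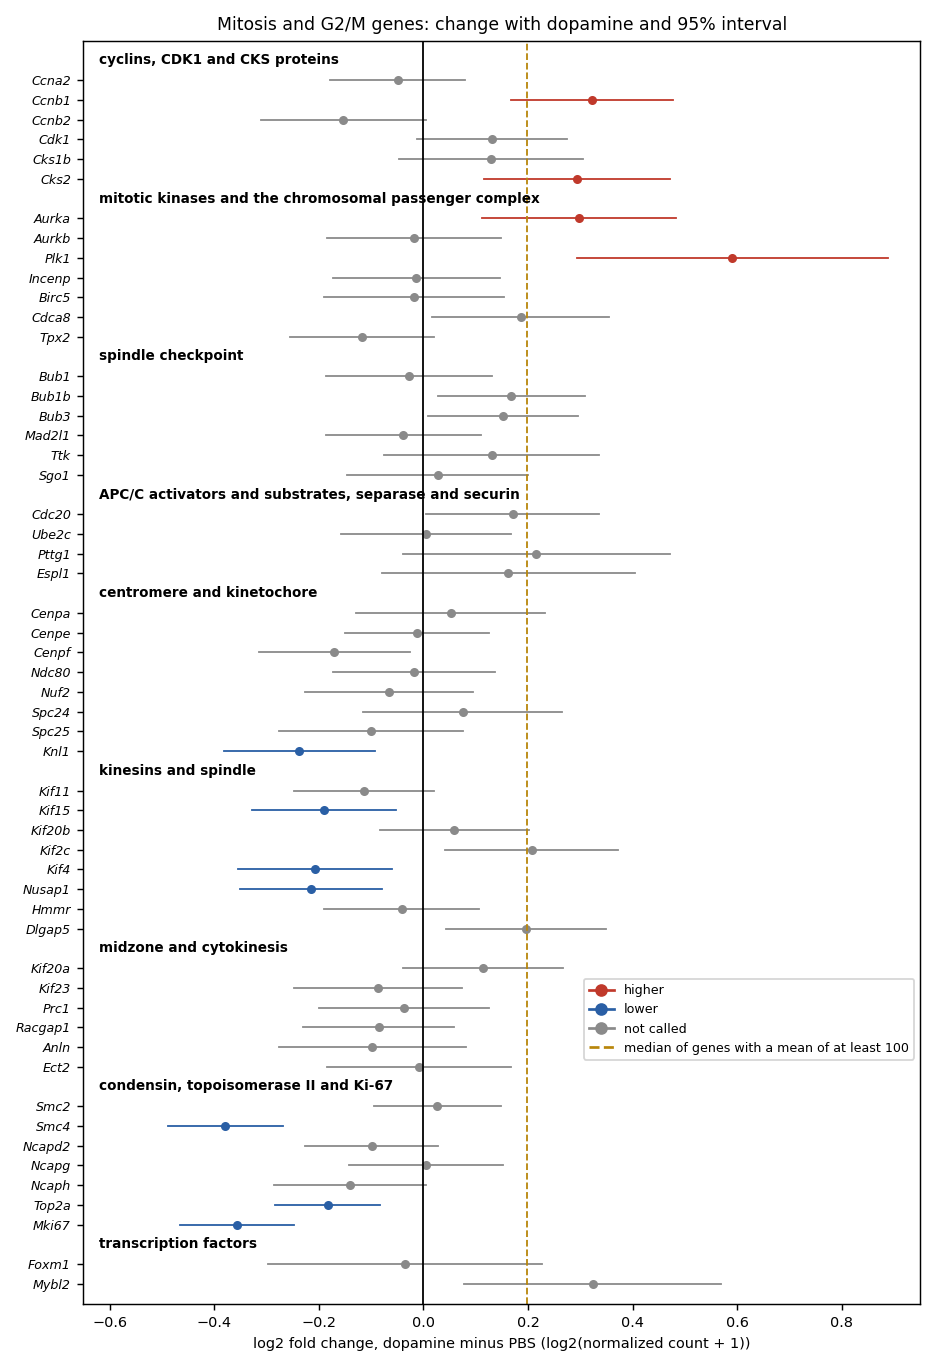
Log2 fold change (dopamine minus PBS, on the log2(normalized count + 1) scale, x axis) of each of the 54 members with its 95% interval from limma, grouped by role down the page, with calls in colour and the median of the abundant genes (mean of 100 or more) as a dashed line. Of the 54 points, 47 lie left of that median of 0.198, and the 7 genes called lower include Smc4 and Mki67 at the far left.

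Where the zero lies depends on the scaling, and this bears on every direction given here. The authors' size factors leave most abundant genes higher with dopamine, and 67.1% of all calls were higher. With edgeR's TMM scaling on the recovered reads, computed after a filter for expressed genes, 18.2% of 15329 genes were called higher and 15.8% lower. The members then counted 2 higher (Ccnb1 and Plk1) and 18 lower, with a median of -0.12. Without that filter, edgeR's TMM scaling gave 4 members higher and 8 lower, with a median of -0.036. Of its 5537 calls over 26207 genes, 65.5% were higher. Later mentions of edgeR's TMM scaling or TMM fit mean the filtered one. Scaled on the abundant genes, which sets their median to 0.0030 in place of 0.198, 6.9% of all genes were called higher and 12.1% lower, and the members counted 1 higher (Plk1) and 30 lower, with a median of -0.21. Relative to the abundant genes, 47 members lay below the median of 0.198 and 7 above it, with the whole 95% interval below it for 32 members and above it for 1. The intervals of the abundant genes were not counted in this way, so the counts of intervals have no background beside them. Over the 12 settings with all 4 libraries in (the authors' scaling and its alternatives), 8 members stayed positive, namely Plk1, Ccnb1, Aurka, Cks2, Mybl2, Pttg1, Kif2c and Dlgap5, and 30 stayed negative. The sign of the other 16 turned from positive to negative in at least 1 setting: Cdk1, Cks1b, Cdca8, Bub1b, Bub3, Ttk, Sgo1, Cdc20, Ube2c, Espl1, Cenpa, Spc24, Kif20b, Kif20a, Smc2 and Ncapg. In the authors' deposited table, 2 of the members were called higher (Ccnb1 and Cks2) and 5 lower (Smc4, Mki67, Top2a, Knl1 and Nusap1), against 19.6% higher and 5.53% lower of the 12997 genes with an adjusted p.

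The libraries also limit the calls. Without PBS A, the shallowest library, 0 members were called higher and 2 lower by limma (4 and 6 at an unadjusted p under 0.05), and without dopamine B 1 was called higher and 3 lower. Without PBS B the counts were 5 higher and 2 lower, and without dopamine A 5 and 4. Smc4 and Mki67 were called lower in all 15 alternatives tried, and the other 9 called members each lost the call in at least 1. Over all genes 8.21% were called higher and 2.91% lower without PBS A, 8.55% and 3.95% without dopamine B, 12.2% and 4.15% without PBS B, and 11.1% and 5.3% without dopamine A. With all libraries in, 40.1% of 9687 genes were higher and 9.23% lower under a filter at a mean of 5 CPM (reads scaled to library size), and 13.1% of 15329 were higher and 20.5% lower with upper-quartile scaling.

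**Figure D2:**
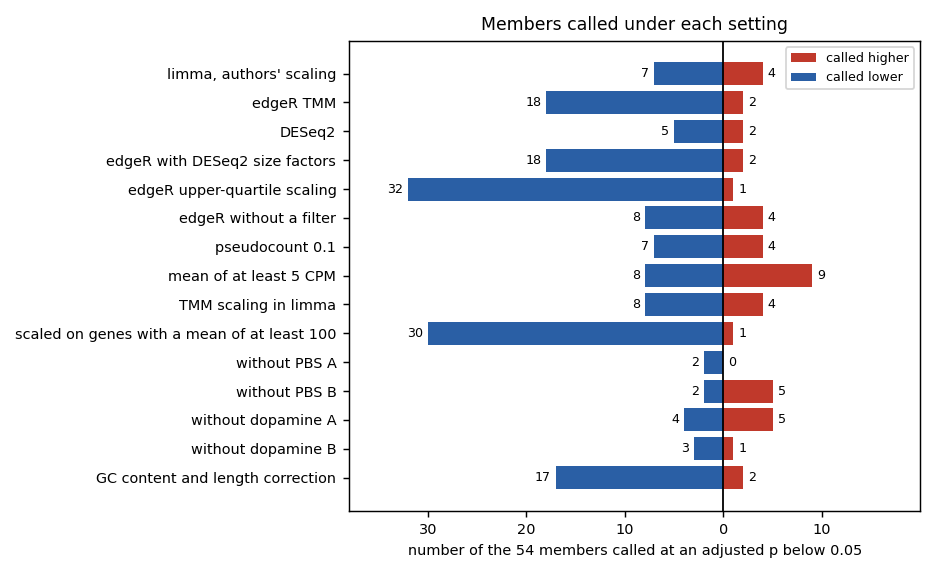
Number of the 54 members called higher (right) and lower (left) at an adjusted p below 0.05 under the settings named at the left, 1 row per setting. Among the rows drawn with all 4 libraries in, the split runs between 9 higher with 8 lower under a filter at a mean of 5 CPM and 1 higher with 32 lower under upper-quartile scaling, and the rows without a library run between 5 higher with 4 lower without dopamine A and 0 higher with 2 lower without PBS A.

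The proximal promoters of these genes share letters that the choice of genes did not use. Genes of G2 and M are known to carry a cell cycle homology region, a short element bound by the MuvB complex with B-MYB or with the repressive pocket proteins, often near CCAAT boxes bound by NF-Y. The promoters of Plk1 and Ccnb1 are shown because these genes had the largest changes of those called higher, and those of Mki67 and Top2a because they had the highest read counts of the members and were called lower. Each is 300 bases of mouse GRCm38.p6 from RefSeq, from 250 bases before the transcription start to 50 after it, written 5′ to 3′ on the gene's strand, with the letters TTTGAA or their variant TTTAAA in capitals, as well as CCAAT, and likewise where they read TTCAAA or are written ATTGG on the other strand.
Plk1, chr7:122159185-122159484, plus strand: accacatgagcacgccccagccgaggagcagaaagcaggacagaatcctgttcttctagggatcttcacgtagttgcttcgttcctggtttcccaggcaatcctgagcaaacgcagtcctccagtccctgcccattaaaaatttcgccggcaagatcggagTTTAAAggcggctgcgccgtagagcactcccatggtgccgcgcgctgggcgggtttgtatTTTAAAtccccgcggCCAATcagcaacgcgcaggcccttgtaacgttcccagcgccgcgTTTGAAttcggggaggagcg
Ccnb1, chr13:100786437-100786736, minus strand: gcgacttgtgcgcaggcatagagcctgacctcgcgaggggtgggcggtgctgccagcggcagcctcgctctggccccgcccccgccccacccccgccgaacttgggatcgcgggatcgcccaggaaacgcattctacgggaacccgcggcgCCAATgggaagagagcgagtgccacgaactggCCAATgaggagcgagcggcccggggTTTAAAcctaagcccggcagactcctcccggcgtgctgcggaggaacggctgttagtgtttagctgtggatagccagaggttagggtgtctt
Mki67, chr7:135716330-135716629, minus strand: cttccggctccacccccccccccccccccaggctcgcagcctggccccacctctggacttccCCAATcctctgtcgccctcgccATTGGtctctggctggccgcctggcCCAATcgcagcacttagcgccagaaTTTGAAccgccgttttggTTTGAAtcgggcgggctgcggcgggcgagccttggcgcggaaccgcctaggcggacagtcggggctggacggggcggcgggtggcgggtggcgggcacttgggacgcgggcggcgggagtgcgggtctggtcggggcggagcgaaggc
Top2a, chr11:99024140-99024439, minus strand: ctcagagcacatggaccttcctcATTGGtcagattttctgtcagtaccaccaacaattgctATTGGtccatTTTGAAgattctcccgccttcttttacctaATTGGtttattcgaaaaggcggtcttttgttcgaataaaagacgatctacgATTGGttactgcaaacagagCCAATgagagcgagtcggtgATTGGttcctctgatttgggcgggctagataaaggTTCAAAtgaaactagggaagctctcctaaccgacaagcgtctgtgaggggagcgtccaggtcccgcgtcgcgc
Counted from the start, Ccnb1 has CCAAT with its first base at -99 and -67 and TTTAAA at -42, and Plk1 has TTTAAA at -89 and -29, CCAAT at -14 and TTTGAA at 31. In Mki67, TTTGAA begins at -116 and -98, downstream of its CCAAT and ATTGG letters at -188, -166 and -141. Top2a has the most CCAAT letters of the 4, at 6 positions on either strand between -227 and -58.

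Promoter windows were matched for 45 of the 54 members, with 48 windows because Bub3, Ect2 and Prc1 have 2 starts each. TTTGAA or TTTAAA, on either strand, was in 39 of the 48 windows (81.3%), against 27.6% of all 32851 windows of the same length. CCAAT on either strand was in 35 windows (72.9%), against 37.4% of all windows, and both kinds of letters were in 32 (66.7%), against 10.7%. The member windows were also richer in G and C, with a median of 59.0% against 52.7%. By call, TTTGAA or TTTAAA was in 3 of 4 windows of the higher members, 5 of 6 of the lower members and 31 of 38 of those not called. Smc4, a lower member, had no matched window. Of the windows examined, that of Cks2 among the higher members and that of Nusap1 among the lower members had neither TTTGAA nor TTTAAA and these letters describe the sequence only. TTTAAA is its own reverse complement and was counted once per position.

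Among the cyclins, cyclin-dependent kinase 1 and the CKS proteins that bind it, the genes Ccnb1 and Cks2 rose. Ccnb1 had 1763 and 1992 normalized counts in dopamine A and B, against 1449 and 1551 in PBS A and B. Both dopamine libraries lay above both PBS libraries, and the log2 fold change was 0.32 (adjusted p = 0.00139, SE 0.077). Ccnb1 encodes the cyclin whose complex with CDK1 triggers mitosis, and its gene spans chromosome 13 from 100778650 to 100786570 on the minus strand in mm10. The call was lost with upper-quartile scaling, with scaling on the abundant genes, without PBS A (adjusted p = 0.0964) and without dopamine B (adjusted p = 0.107).

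Cks2, a small CDK-binding subunit, had 904 and 925 with dopamine, against 713 and 780.0 with PBS. Its dopamine libraries were both the higher ones, at a log2 fold change of 0.29 (adjusted p = 0.0120, SE 0.088), and the call was lost in 7 of 15 alternatives, among them edgeR's TMM scaling (0.18, adjusted p = 0.0625), the fit without PBS A (0.23, adjusted p = 0.182) and the fit without dopamine B (0.28, adjusted p = 0.108). The paralog Cks1b had a log2 fold change of 0.13 and did not pass. Cdk1 itself, the kinase that these proteins activate, had 2172 and 2177 with dopamine, against 1942 and 2030 with PBS. Its groups did not overlap, but the log2 fold change of 0.13 (SE 0.071) did not pass (adjusted p = 0.195), and its sign turned with upper-quartile scaling (-0.059) and with scaling on abundant genes (-0.064).

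The other cyclins of the list did not pass. Ccna2, the cyclin of S phase and G2, had 3576 and 3505 with dopamine, against 3690 and 3638 with PBS, a log2 fold change of -0.049 (SE 0.064) that did not pass (adjusted p = 0.632). Ccnb2, the second B-type cyclin, had a log2 fold change of -0.15 (adjusted p = 0.168). Of the 6 genes of this group, 2 rose, 0 fell and 4 did not pass, beside 39.1% of the abundant genes higher and 7.9% lower. The median was 0.13, and with edgeR's TMM scaling 1 was higher (Ccnb1) and 2 lower (Ccna2 and Ccnb2).

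Polo-like kinase 1 had the largest log2 fold change of the 54 genes and was the least abundant of them by read count. Plk1 had 192 and 188 with dopamine, against 114 and 139 with PBS. The PBS libraries lay apart from each other but both below the dopamine libraries, at a log2 fold change of 0.59 (adjusted p = 0.00229, SE 0.15). Plk1 acts at centrosome maturation, mitotic entry and cytokinesis, and its gene lies on chromosome 7 from 122159439 to 122169873 on the plus strand. The call was lost in DESeq2 (adjusted p = 0.0520) and without PBS A (0.45, adjusted p = 0.0808).

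Aurora A, the centrosomal kinase that activates PLK1, moved the same way. Aurka had 727 and 773 with dopamine, against 596 and 623 with PBS, with no overlap. Its log2 fold change was 0.30 (adjusted p = 0.0153, SE 0.092), and the call was lost in 8 of 15 alternatives. It was lost in DESeq2 at the authors' own scaling (0.29, adjusted p = 0.0545), without PBS A (0.27, adjusted p = 0.140), without dopamine B (0.25, adjusted p = 0.192) and with edgeR's TMM scaling (0.19, adjusted p = 0.0654). Upper-quartile scaling and scaling on abundant genes left 0.11 and 0.10. The spindle protein TPX2 activates Aurora A, and Tpx2 had a log2 fold change of -0.12, which did not pass.

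Aurora B and its partners in the chromosomal passenger complex, which corrects faulty attachments at the centromere, did not pass. Aurkb had 1021 and 1115 with dopamine, against 1070 and 1090 with PBS, so the groups overlapped, at a log2 fold change of -0.018 (adjusted p = 0.906, SE 0.083). Birc5, which encodes survivin, was nearly flat, with 887.2 and 886.5 with dopamine, against 895 and 900.2 with PBS, and a log2 fold change of -0.018 (adjusted p = 0.909, SE 0.085). Incenp, the scaffold of the complex, stood at -0.014 and Cdca8, which encodes borealin, at 0.19 (adjusted p = 0.115). Of the 7 kinase and passenger genes 2 rose, 0 fell and 5 did not pass, beside 39.1% of the abundant genes higher and 7.9% lower. That balance turned with the scaling, to 1 higher and 4 lower with upper quartiles and with scaling on abundant genes, and to 1 higher and 3 lower with the GC and length correction. DESeq2 and limma without PBS A called 0 of the 7.

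**Figure D3:**
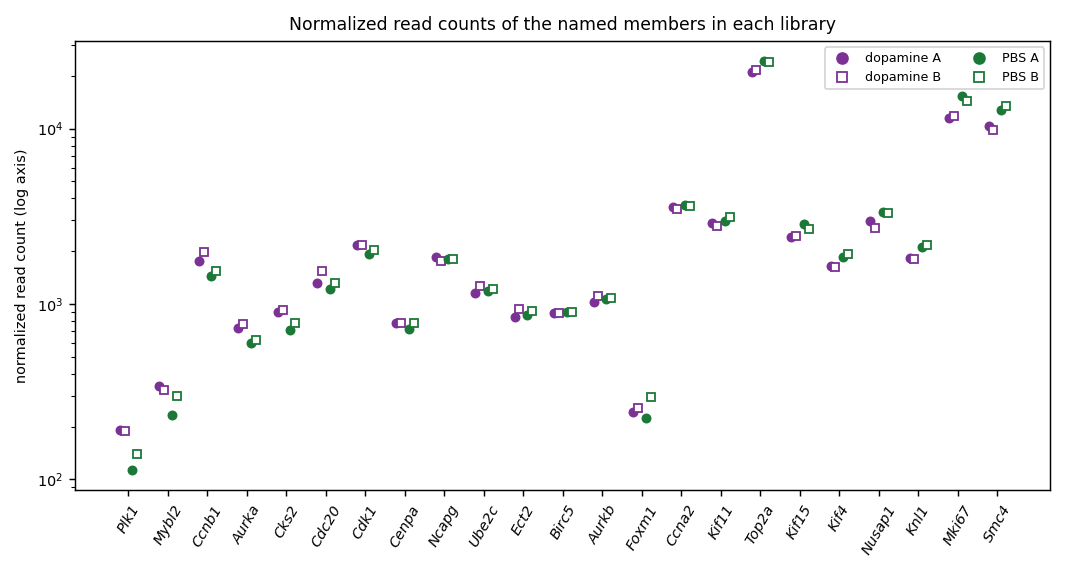
Normalized read count (y axis, log scale) of the 23 members named with a value in every library, ordered along the x axis by log2 fold change from the largest to the smallest, with dopamine A, dopamine B, PBS A and PBS B as 4 points per gene. The dopamine points lie above the PBS points for Plk1, Mybl2, Ccnb1, Aurka and Cks2 at the left and below them for Top2a, Kif15, Kif4, Nusap1, Knl1, Mki67 and Smc4 at the right, while the genes in the middle overlap or nearly touch.

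None of the 6 spindle checkpoint genes, whose products hold back anaphase until every kinetochore is attached, passed limma's test, with 2 at an unadjusted p under 0.05 and 0 called by edgeR's TMM fit or DESeq2. Their log2 fold changes were 0.17 for Bub1b, which encodes BUBR1, 0.15 for Bub3, 0.13 for the kinase gene Ttk and 0.027 for Sgo1, the protector of centromeric cohesin. Those of Bub1 and Mad2l1 were -0.028 and -0.039. Bub1b came nearest to the threshold (adjusted p = 0.0817), and both dopamine libraries exceeded both PBS libraries for Bub1b and Bub3. The median of the 6 was 0.079 and turned to -0.038 with edgeR's TMM scaling. With upper-quartile scaling and in limma scaled on abundant genes 2 were lower, beside 20.5% and 12.1% of the genes tested there. Under a filter at a mean of 5 CPM 1 was higher, beside 40.1% of the genes tested.

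The APC/C activator Cdc20 had 1311 and 1540.0 with dopamine, against 1213 and 1314 with PBS. Dopamine A fell inside the PBS range and dopamine B above it, and the log2 fold change of 0.17 (SE 0.082) did not pass (adjusted p = 0.142). Its sign turned with upper-quartile scaling (-0.024), with scaling on abundant genes (-0.025) and with a correction for GC content and length (-0.077). Ube2c, the ubiquitin-conjugating enzyme of the APC/C, was among the 3 members closest to no change, with 1153 and 1270.0 with dopamine, against 1191 and 1223 with PBS, and a log2 fold change of 0.0043 (adjusted p = 0.976, SE 0.081) that turned to -0.10 with edgeR's TMM scaling. Pttg1, which encodes securin, was at 0.22 and Espl1, which encodes the separase that securin restrains, at 0.16, and neither passed. Of these 4 genes 0 were called by limma, edgeR's TMM fit or DESeq2, with 1 at an unadjusted p under 0.05 in limma.

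Among the 8 centromere and kinetochore genes, 1 fell and 7 did not pass, beside 39.1% of the abundant genes higher and 7.9% lower. Knl1, the kinetochore scaffold that recruits the BUB proteins, had 1838 and 1796 with dopamine, against 2122 and 2163 with PBS. The groups lay well apart, at a log2 fold change of -0.24 (adjusted p = 0.0126, SE 0.072). The call was lost without PBS A, without PBS B and without dopamine B. Knl1 lies on chromosome 2 from 119047119 to 119105501 on the plus strand.

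Cenpf, a large protein of the outer kinetochore, came next at -0.17 (adjusted p = 0.0839), and was called lower with edgeR's TMM scaling. The NDC80 complex, which grips the microtubule, was spread about zero, with log2 fold changes of -0.018 for Ndc80, -0.066 for Nuf2, 0.075 for Spc24 and -0.10 for Spc25. Cenpe, a kinetochore motor, was at -0.013. Cenpa, the centromeric histone H3 variant, had 776.8 and 774.8 with dopamine, against 720.3 and 778 with PBS. Both dopamine libraries fell inside the PBS range, at a log2 fold change of 0.052 (adjusted p = 0.731, SE 0.089) whose sign turned in 6 alternatives, edgeR's TMM scaling among them (-0.058).

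In the group of kinesins and other spindle proteins 3 of 8 fell and 0 rose, beside 7.9% of the abundant genes lower and 39.1% higher. Nusap1, which bundles microtubules near chromosomes, had 2990 and 2724 with dopamine, against 3328 and 3298 with PBS. Kif4, the chromokinesin gene on the X chromosome, had 1659 and 1620 with dopamine, against 1862 and 1925 with PBS. Kif15, a plus-end motor that helps to hold the spindle bipolar, had 2426 and 2449 with dopamine, against 2869 and 2696 with PBS. In all 3 genes both dopamine libraries lay below both PBS libraries, with log2 fold changes of -0.22 (adjusted p = 0.0163, SE 0.067) for Nusap1, -0.21 (adjusted p = 0.0360, SE 0.073) for Kif4 and -0.19 (adjusted p = 0.0395, SE 0.068) for Kif15. Kif4 and Kif15 each lost the call in DESeq2 and when any single library was left out, and Nusap1 without PBS A, without PBS B and without dopamine B.

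Kif11, which encodes the main bipolar motor Eg5, had 2883 and 2787 with dopamine, against 2991 and 3144 with PBS. The groups did not overlap, and the log2 fold change of -0.11 (SE 0.067) did not pass (adjusted p = 0.239). Kif2c, a microtubule depolymerase of the centromere, and Dlgap5, which stabilises spindle fibres, leaned the other way at 0.21 (adjusted p = 0.0676) and 0.20 (adjusted p = 0.0586). Kif20b stood at 0.059 and Hmmr, which encodes a spindle pole protein, at -0.042.

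The 6 genes of the spindle midzone and of cytokinesis held 0 calls in limma under the authors' scaling and in DESeq2, with 0 at an unadjusted p under 0.05. There were 2 lower calls in edgeR's TMM fit, 5 with upper-quartile scaling and 4 in limma scaled on abundant genes. Of all genes tested in those 3 fits, 15.8%, 20.5% and 12.1% were lower. Racgap1 and Kif23, whose products form centralspindlin, had log2 fold changes of -0.086 and -0.087, Anln, an actin-binding protein of the contractile ring, -0.098, and Prc1, which crosslinks midzone microtubules, -0.038. Kif20a was the only positive one at 0.11. Ect2, the exchange factor that activates RhoA at the division site, had 839 and 933 with dopamine, against 865 and 917 with PBS, with overlapping groups and a log2 fold change of -0.0089 (adjusted p = 0.955, SE 0.087).

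The largest falls were in the genes of chromosome shape. Smc4, the ATPase subunit common to condensin I and II, had 10412 and 9836 with dopamine, against 12835 and 13492 with PBS. Both dopamine libraries lay below both PBS libraries, at a log2 fold change of -0.38 (adjusted p = 5.01e-07, SE 0.055). Mki67, which encodes Ki-67, the coat protein of mitotic chromosomes used to count dividing cells, had 11467 and 11737 with dopamine, against 15404 and 14330.0 with PBS. Here too the dopamine libraries were both lower, at a log2 fold change of -0.36 (adjusted p = 1.23e-06, SE 0.054), which is a level 21.9% below PBS. Smc4 lies on chromosome 3 from 69004738 to 69034623 on the plus strand and Mki67 on chromosome 7 from 135689784 to 135716361 on the minus strand.

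Top2a, topoisomerase II alpha, which untangles sister DNA, was the most abundant of the 54 genes, with 20926 and 21537 with dopamine, against 24274 and 23930.0 with PBS. The groups did not overlap and the log2 fold change was -0.18 (adjusted p = 0.00515, SE 0.050), but the call was lost without PBS A (adjusted p = 0.180), without PBS B (adjusted p = 0.102) and without dopamine A (adjusted p = 0.0525). Smc2, which encodes the partner of SMC4, had a log2 fold change of 0.026 that did not pass (adjusted p = 0.800). The condensin I subunits Ncapd2 and Ncaph were at -0.099 and -0.14, and Ncapg, with 1863 and 1771 with dopamine, against 1818 and 1801 with PBS, was at 0.0056 (adjusted p = 0.965, SE 0.073), and at -0.095 with edgeR's TMM scaling. Of the 7 genes of this group, 3 fell, 0 rose and 4 did not pass, beside 7.9% of the abundant genes lower and 39.1% higher. Their median was -0.14. With upper-quartile scaling and with scaling on abundant genes all 7 were lower, beside 20.5% and 12.1% of the genes tested there.

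The transcription factors that drive the G2 and M genes were scarce, and 0 of 2 were called by limma, edgeR's TMM fit or DESeq2, with 1 at an unadjusted p under 0.05 in limma. Mybl2, which encodes B-MYB, had 339 and 325 with dopamine, against 234 and 300.3 with PBS, with no overlap and a log2 fold change of 0.32 (SE 0.12) just outside the threshold (adjusted p = 0.0518). The value moved with the PBS library left out: it was 0.15 (adjusted p = 0.524) without PBS A and 0.50 (adjusted p = 0.0159, called) without PBS B, and 0.18 (adjusted p = 0.221) with edgeR's TMM scaling. Foxm1 had 244 and 256 with dopamine, against 223 and 295 with PBS. Its dopamine libraries fell inside the PBS range, at a log2 fold change of -0.035 (adjusted p = 0.880, SE 0.13).

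Counted without any threshold, both dopamine libraries lay above both PBS libraries for 16 members and below them for 21, with 17 overlapping. Over the 8492 abundant genes, dopamine lay above for 60.8% and below for 15.4%. These counts hold under the authors' scaling and are a description.

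**Figure D4:**
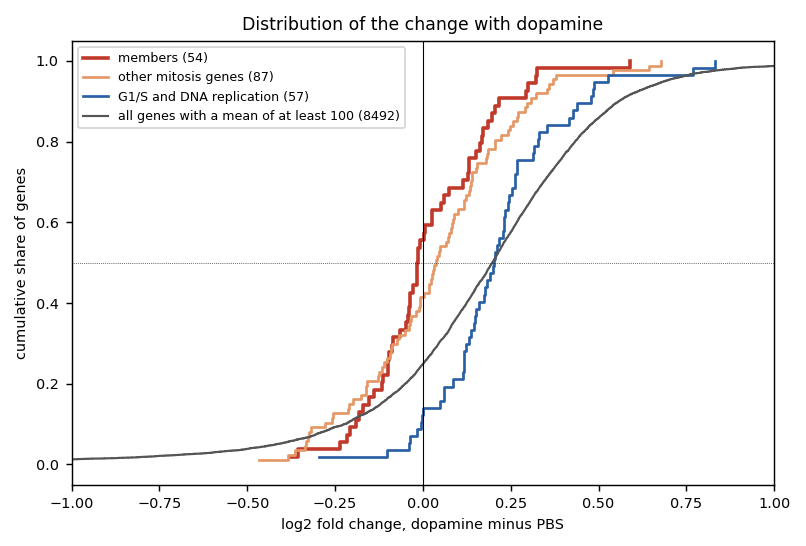
Cumulative share of genes (y axis) by log2 fold change (dopamine minus PBS, x axis) for the 54 members, 87 other mitosis genes, 57 genes of G1/S and DNA replication and all 8492 abundant genes, under the authors' scaling. The member curve crosses the middle of the axis at -0.016 and the curve of other mitosis genes at 0.038, left of the G1/S genes and the abundant genes, which cross it at 0.202 and 0.198.

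Ratios between genes of the same library do not depend on how libraries are scaled. For every 1000 Mki67 reads there were 154 and 170 Ccnb1 reads in dopamine A and B, against 94.1 and 108 in PBS A and B. Plk1 reads per 1000 Mki67 reads were 16.8 and 16.0 with dopamine, against 7.39 and 9.73 with PBS. These genes were taken for their opposite calls, so that the groups lie apart in both ratios was fixed by that choice and is no further result. Within the set, Top2a, Mki67 and Smc4 took 35.0% and 35.0% of the summed normalized counts with dopamine, against 39.7% and 39.0% with PBS. The other 51 members summed to 79493 and 80009 normalized counts with dopamine, against 79831 and 80887 with PBS, and these sums overlapped between the groups. Top2a, Mki67 and Smc4 were the most abundant members and were all called lower. Their smaller share and the narrower gap in the rest thus follow from that choice and are no further result.

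As a share of all reads assigned to genes, the 54 members took 1.12% (Wilson 95% interval 1.11 to 1.12) and 1.10% (1.10 to 1.11) with dopamine, against 1.36% (1.35 to 1.37) and 1.31% (1.30 to 1.31) with PBS. Both dopamine shares lay below both PBS shares, and the intervals cover counting error only. Set against the summed G1/S and DNA replication genes, the members stood at 1.31 and 1.27 with dopamine, against 1.57 and 1.53 with PBS. Without Top2a, Mki67 and Smc4 that ratio was 0.848 and 0.825 with dopamine, against 0.949 and 0.931 with PBS. Relative to the genes of the preceding phase, the members were thus lower in both dopamine libraries, with or without those 3 genes and whatever the scaling.

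Per kilobase of merged exon, which allows levels to be set between genes, the highest members over the 4 libraries were Top2a with 2515 normalized counts per kilobase, Smc4 with 2235, Mki67 with 1315 and Cks2 with 1200.5. The lowest were Espl1 with 31.5, Foxm1 with 44.2, Mybl2 with 64.7 and Plk1 with 72.0. Among the members, the log2 fold change went with gene level, length and base composition. Across the 54 genes, which share libraries and are not independent, Spearman's rho of the log2 fold change was -0.552 with mean count, -0.436 with exon length and 0.442 with GC content. Over 8373 abundant genes with a known length, rho was -0.276 with length and 0.180 with GC content, and rho with mean count was not taken there. The 7 members called lower had 4059 to 11020 bases of exon and 38.3% to 47.1% GC, and the 4 called higher had 692 to 4217 bases and 44.1% to 56.1% GC. With each library corrected for GC content and length, 26% of 11384 genes were called higher and 14.9% lower, and the members counted 2 higher (Ccnb1 and Plk1) and 17 lower. All 7 that were lower stayed called lower. Of the 4 that were higher, Ccnb1 was at 0.21 (adjusted p = 0.0111) and Plk1 at 0.34 (adjusted p = 0.0458) after the correction, while Aurka at 0.12 (adjusted p = 0.186) and Cks2 at 0.093 (adjusted p = 0.309) no longer passed. The part of RNA quality was not tested.

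**Figure D5:**
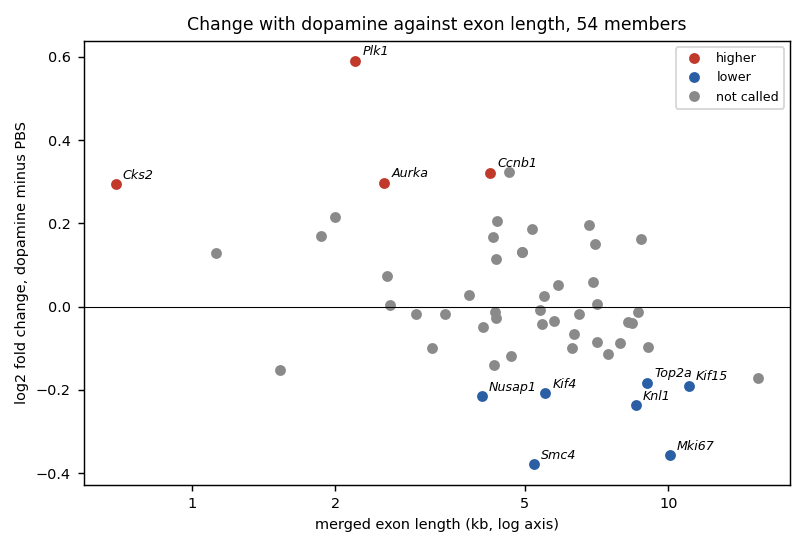
Log2 fold change (dopamine minus PBS, y axis) of the 54 members against merged exon length in kilobases (x axis, log scale), 1 point per gene, with the 11 called genes named. The genes called lower lie between 4059 and 11020 bases and those called higher between 692 and 4217 bases.

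Other genes of the same machinery were read from lists written by hand. Of 87 other mitosis genes, 15 rose (17.2%, beside 39.1% of the abundant genes) and 6 fell (6.9%, beside 7.9%), at a median of 0.038 that turned to -0.076 with edgeR's TMM scaling, where 6 were higher and 20 lower. Zwint, a kinetochore gene, had 2007 and 1995 with dopamine, against 1401 and 1351 with PBS, a log2 fold change of 0.54 (adjusted p = 1.68e-07). Trip13, whose product takes apart the checkpoint complex, rose by 0.68 (adjusted p = 4.23e-07) and the tubulin gene Tubb4b by 0.35 (adjusted p = 3.61e-05), while Stmn1, which encodes a tubulin-binding protein, fell by 0.33 on the log2 scale (adjusted p = 0.000158). All 4 were picked among called genes whose groups did not overlap, so that trait is no further result.

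Of 18 genes that control entry into mitosis 6 rose (33.3%, beside 39.1% of the abundant genes) and 0 fell, at a median of 0.21 beside 0.198, and scaled on abundant genes 1 was higher and 3 lower. Cdc25a, the phosphatase that activates CDK complexes, had 1443 and 1481 with dopamine, against 1121 and 1140.1 with PBS (log2 fold change 0.37, adjusted p = 0.000307). The phosphatase 2A genes Ppp2ca and Ppp2r1a rose by 0.33 and 0.31, and Mnat1, a subunit of the CDK-activating kinase, by 0.47. Wee1, the kinase that restrains CDK1, and Cdc25b, a phosphatase that opposes it, did not pass, at -0.19 (adjusted p = 0.227) and 0.21 (adjusted p = 0.242).

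Of 19 APC/C subunit and inhibitor genes, 6 rose (31.6%, beside 39.1% of the abundant genes) and 1 fell (5.26%, beside 7.9%). Their median was 0.17, which turned to -0.026 with scaling on abundant genes, where 2 were higher and 2 lower. DESeq2 called 2 higher and 1 lower. The subunit genes Cdc16, Anapc4 and Cdc26 rose by 0.43, 0.39 and 0.37 and the inhibitor gene Mad2l2 by 0.56. Of 14 cohesin genes, 0 rose and 2 fell (14.3%, beside 7.9% of the abundant genes). Esco2, the acetyltransferase that locks cohesin on sister chromatids, fell by 0.42 on the log2 scale (adjusted p = 4.97e-05). Rad21, the cohesin ring subunit, fell by 0.23 (adjusted p = 0.0305). Esco2 kept its call in all 15 alternatives and Rad21 lost it in 5, among them DESeq2 and the fits without PBS B (-0.14, adjusted p = 0.329), without dopamine A (-0.19, adjusted p = 0.201) and without dopamine B. The lower calls of the list numbered 5 with edgeR's TMM scaling, 7 with upper quartiles and 6 with scaling on abundant genes, with 0 higher in each.

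Of 57 genes of G1/S and DNA replication, the phase before, 23 rose (40.4%) and 1 fell (1.75%), beside 39.1% and 7.9% of the abundant genes, so the share of higher calls was near that background. Their median was 0.20 beside 0.198 for the abundant genes, and with edgeR's TMM scaling 11 were higher and 2 lower. The replication licensing genes Orc1 and Orc2 rose by 0.77 (adjusted p = 8.55e-07) and 0.48 (adjusted p = 1.14e-05), Gmnn, which encodes the licensing inhibitor geminin, by 0.53 and the clamp loader gene Rfc4 by 0.49. Ccne1, the cyclin of the G1/S transition, had 851 and 841 with dopamine, against 635 and 623 with PBS (log2 fold change 0.43, adjusted p = 0.000283). Mcm2, a helicase subunit, rose by 0.23 (adjusted p = 0.0132) and lost the call in 6 alternatives, and Pcna, the sliding clamp, had 6965 and 7150.3 with dopamine, against 7019 and 7104 with PBS, with overlapping groups (log2 fold change -0.00080, adjusted p = 0.994). The count of higher calls dropped to 7 without PBS A and to 9 without dopamine B, and scaled on abundant genes 6 were higher and 6 lower.

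The cells carried helper T cell transcripts in every library, with Cd4 at 4586 and 4749 with dopamine, against 4271 and 4236 with PBS, though its difference did not pass (adjusted p = 0.122). Of the 8 helper T cell markers, Cd3d, Cd3g, Trbc2 and Il4 were called higher and Trac lower, at -0.27 (adjusted p = 0.000838), and Gata3, the Th2 transcription factor gene, was at -0.085 and did not pass. Markers of other blood cells moved between the groups and are given because those cells may divide too. Their counts stand beside 14.3% of all genes called higher and 7% called lower. Basophil and mast cell markers fell in 8 of 9 tested, summing to 898 and 824 normalized counts with dopamine, against 2633 and 2243 with PBS. Megakaryocyte and platelet markers fell in 8 of 8, summing to 459 and 401 with dopamine, against 1582 and 1408 with PBS, and myeloid markers in 8 of 11, summing to 275 and 267 with dopamine, against 890.1 and 867 with PBS. Red cell precursor markers fell in 4 of 8, with sums of 11637 and 11515 with dopamine, against 11375 and 11501 with PBS, most of it in Tfrc, which dividing T cells also use. The other 7 summed to 242 and 182 with dopamine, against 620.0 and 493 with PBS. B and plasma cell markers rose in 7 of 10, with sums of 3613 and 3800.4 with dopamine, against 2699 and 2890.0 with PBS, most of it in Xbp1, which other secretory cells also express. The other 9 summed to 505 and 485 with dopamine, against 234 and 204 with PBS. CD8 T and NK cell markers rose in 2 of 7, Cd8a and Eomes, with sums of 537 and 518 with dopamine, against 301 and 246 with PBS. Eomes alone had 295 and 283 with dopamine, against 139 and 133 with PBS. The other 5 did not pass and went both ways. Cd8b1 and Klrk1 were at 0.41 and 0.71, and Klrb1c, Ncr1 and Klre1 at -1.16, -0.49 and -0.20. Of 8 dendritic cell markers, 1 rose and 1 fell, with sums of 563 and 602 with dopamine, against 423 and 427 with PBS. The gene that rose was H2-Aa, an MHC class II gene that B cells also express, and the other 7 summed to 118 and 103 with dopamine, against 110 and 123 with PBS, with overlapping groups. S100a8, S100a9, Ly6g, Siglech and Cd209a were at 0 in at least 1 library. The part of such cells in the level of the mitosis genes was not tested.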

How the data were processed

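Per the labels' protocols, total RNA was isolated with an RNeasy kit and sequenced from TruSeq Stranded mRNA libraries. Per the submitters' processing notes, the mm10 build was used with TopHat2 2.0.13, FastQC 0.11.2, R 3.6.2, HTSeq 0.6 and DESeq2 of no stated version. Neither the annotation nor the strand setting is given in the sources used here, so antisense overlaps may have been counted with a gene, and near-identical copies may share reads. Per the file headers, the deposited table holds the authors' comparison of dopamine with PBS, with p-values before and after adjustment, a log2 fold change with its error, and a Wald score. It has 0 columns of other samples. In its 4 library columns the authors' signal is each gene's count over the library's size factor, at 1.30, 1.03, 0.589 and 1.31 for dopamine A, dopamine B, PBS A and PBS B, per the file headers and the values. Of these values 100% came out as whole reads within a tolerance of 0.01. The columns are numbered 2 and 3 where the titles number replicates 1 and 2, so columns were matched to a group only, and A and B name columns. Libraries of a group differed beyond sampling noise, at a chi-square per degree of freedom of 3.43 for dopamine and 2.37 for PBS.

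The plan named edgeR for raw counts. For normalized values, limma 3.58.1 in R 4.3.3 was used on log2(value + 1), with the prior variance trended on the mean, unfiltered and 2-sided, Benjamini-Hochberg over 26207 genes at 0.05. Fold changes on this scale understate those of low genes. Alternatives were edgeR 4.0.16 (quasi-likelihood, TMM and filterByExpr) on the recovered reads, which called 5219 of 15329 genes, edgeR unfiltered or scaled by upper quartiles or DESeq2 size factors, DESeq2 1.42.0, limma at a pseudocount of 0.1, limma over genes averaging 5 CPM or more, limma with TMM scaling or scaled on genes averaging 100 or more, and limma without each library in turn. Correcting each library by loess for GC content and exon length was added after seeing the data. The main limma fit and edgeR's TMM fit were run on simulated reads, and the other alternatives were not. GENCODE M21 (mm10) gave locations, merged exon lengths and GC content, and RefSeq (GRCm38.p6) gave promoters.

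Genes named with every library's value are the called members whose groups did not overlap, at most 12 by size of change, the 3 with the smallest change and 13 set by name. The other members are named with their log2 fold change. From each pathway list up to 4 genes are named by smallest p, among those called whose groups did not overlap. Cdkn1a, Cdkn1b, Wee1, Cdc25b, E2f1, Ccne1, Mcm2 and Pcna were set by name. The members and lists were chosen with earlier results of these data known, and the lists were written by hand without a pathway database.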

Additional observations from a re-analysis of the deposited data

How the results depend on the processing

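Limma called 5577 genes under the authors' scaling, 3261 were called by DESeq2, and 2914 to 4299 with 1 library left out, the lowest without PBS A and 3276 without dopamine B. In those fits the lone library of a group is assumed to vary like the other group. Leaving out a library gave 0 to 5 members called higher, 2 to 4 called lower and a median member log2 fold change of -0.024 to -0.0029. The 4 higher members were 2 in edgeR's TMM fit, DESeq2, edgeR with DESeq2 size factors and the GC and length correction, 1 with upper-quartile scaling and with scaling on abundant genes, and 9 with a filter at a mean of 5 CPM. The 7 lower members were 18 in edgeR's TMM fit and with DESeq2 size factors, 32 with upper-quartile scaling, 30 with scaling on abundant genes and 17 with the GC and length correction. The median moved from -0.016 to -0.12 in edgeR's TMM fit and with DESeq2 size factors (-0.119 in each), -0.20 with upper quartiles, -0.036 without a filter, -0.035 with TMM in limma, -0.21 scaled on abundant genes and -0.10 with the correction. The edgeR fits with TMM, DESeq2 size factors or upper quartiles were scaled after the filter for expressed genes. TMM without that filter left the median at -0.036 in edgeR and -0.035 in limma. The cause of the shifts was not tested. Signs turned for Cdc20 (-0.024, -0.025 and -0.077 with upper quartiles, abundant genes and the correction), Cdk1 (-0.059 and -0.064 with the first 2), E2f1 (-0.020 and -0.056 with abundant genes and the correction), and Cenpa (-0.058 and -0.058 in both edgeR fits, -0.14 and -0.14 with upper quartiles and abundant genes, -0.026 with the correction, -0.0034 to 0.11 with 1 library out). Ncapg turned to -0.095 and -0.094 in both edgeR fits, -0.18 with upper quartiles, -0.011 without a filter, -0.014 with TMM in limma, -0.19 on abundant genes, -0.024 with the correction, and -0.031 to 0.042 with 1 library out (-0.00090 without PBS B). Ube2c turned to -0.10 and -0.10 in both edgeR fits, -0.19 with upper quartiles, -0.018 without a filter, -0.015 with TMM in limma, -0.19 on abundant genes, -0.20 with the correction, and -0.065 to 0.074 with 1 library out (-0.015 without PBS A). With 1 library out, values ran from -0.081 to 0.046 for Aurkb, -0.085 to 0.067 for Ect2 (0.034 without PBS B), -0.24 to 0.17 for Foxm1 (0.00070 without dopamine A) and up to 0.018 for Pcna (0.0078 without PBS B). With the column number as a replicate block, 6999 genes, 11 members higher and 8 lower were called, at an unchanged median of -0.0157, but libraries of the same number share only that number (r = 0.214 between their deviations over 8492 genes, 2 pairs). PBS A, at 5717408 reads, limits the depth of its group.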

Other observations

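Genes that control the exit from the cell cycle and the transcription of cell cycle genes were also measured. Of 26 p53 targets and CDK inhibitors, 7 rose (26.9%, beside 39.1% of the abundant genes) and 5 fell (19.2%, beside 7.9%) with dopamine. Their median log2 fold change was 0.032, which turned to -0.058 with edgeR's TMM scaling. Cdkn1b, which encodes the CDK inhibitor p27, had 799 and 770.0 normalized counts with dopamine, against 1181 and 1343 with PBS, a log2 fold change of -0.68 (limma adjusted p = 2.35e-08, SE 0.086). Cdkn1a, which encodes the inhibitor p21, had 322 and 365 with dopamine, against 209 and 202 with PBS, at 0.74 on the log2 scale (adjusted p = 6.59e-06, SE 0.12). Both dopamine libraries were thus below both PBS libraries for Cdkn1b and above them for Cdkn1a. The stress genes Gadd45g and Gadd45b rose by 1.36 and 1.36, with Gadd45g at 1095 and 1176 with dopamine, against 440.0 and 445 with PBS.

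Of 22 E2F, RB and MuvB regulators, 4 rose and 3 fell, at a median of 0.11 that turned to -0.086 with scaling on abundant genes, and without PBS A 1 was higher and 1 lower. With all libraries in, the shares of the list were 18.2% higher and 13.6% lower, beside 39.1% and 7.9% of the abundant genes. Mybl1, a relative of Mybl2, had 209 and 173 with dopamine, against 302 and 303 with PBS, a log2 fold change of -0.67 (adjusted p = 7.11e-05, SE 0.13). Rb1, which encodes the retinoblastoma protein, fell by 0.31 on the log2 scale (adjusted p = 0.00367), with 1066 and 965 with dopamine, against 1252 and 1269 with PBS. Lin54, the MuvB subunit that binds the cell cycle homology region, rose by 0.36 (adjusted p = 0.00152) and E2f5, which encodes a repressive E2F, by 0.71 (adjusted p = 0.00277). Lin54 lost the call in 3 of 15 alternatives and E2f5 in 1. In the authors' deposited DESeq2 comparison E2f5 did not pass (adjusted p = 0.0594), and it had 39 reads in PBS A. E2f1 had 159 and 179 with dopamine, against 155 and 144 with PBS, and did not pass (adjusted p = 0.430). Rb1 and Lin54 lost their calls without PBS A (adjusted p = 0.0556 and 0.05495), and Rb1 also without PBS B (0.0547) and without dopamine B (0.126).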
